A study of Mus musculus with 12 samples.

Results

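Primary oligodendrocyte precursor cells (OPCs) were treated with EPZ011989, an inhibitor of the histone methyltransferase EZH2 (EZH2i), and their transcriptome was compared with that of OPCs without inhibitor (Ctr). The 6 libraries described here, 3 of EZH2i and 3 of Ctr, are those of the 12 RNA-seq libraries whose labels give neither group IFN-γ. The OPCs carried the labels Sox10GFP+ and an age of P4-P6, and they were cultured from pooled pup brains of different litters. The dose of EZH2i was 1.5 μM over 4 days, with renewal every 48 h; Ctr is labelled 0 μM, and no vehicle is named. A second pair of groups had 100 ng/ml IFN-γ for 6 h after the same 4 days with or without EZH2i. It shares no library with the first pair. Below it serves to measure the same genes again and to compare the response to EZH2i. Its libraries also enter the fit of all 12, and so the filter, scaling and estimate of spread. Sox10 drives the reporter in the whole oligodendrocyte lineage, so the label alone does not separate precursors from more mature cells. The labels also name EAE as the mouse model, although no disease induction is described for these pup cultures.

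EZH2 is the catalytic subunit of Polycomb repressive complex 2 (PRC2), which places methyl groups on lysine 27 of histone H3 at the promoters of silent developmental genes. PRC1, a partner complex, reads this mark. In the oligodendrocyte lineage, PRC2 keeps genes of other lineages silent while precursors divide and then mature into myelin-forming cells, which switch on genes for the proteins and lipids of the myelin sheath. Because the inhibitor acts on the enzyme and not on its transcript, the RNA level of Ezh2 is no check of the treatment.

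The libraries held between 17403893 and 56969353 counts in Ctr and between 26392979 and 61416883 in EZH2i, where a count is the number of read pairs that Salmon assigned to the transcripts of a gene. Levels are given as CPM, which are counts scaled to a common library size with TMM factors, and 18995 genes passed the filter on low counts. Mitochondrial transcripts took 3.02% to 3.62% of the counts in Ctr and 1.89% to 3.06% in EZH2i, and rRNA genes 0.886% to 2.20% and 0.219% to 1.55%. The second principal component, with 17.2% of the variance, followed the replicate number in every group, at 38.3 and 47.4 for replicate 1, 5.69 and -10.2 for replicate 2 and -41.2 and -39.2 for replicate 3 of Ctr and EZH2i. The third, with 11.6% of the variance, placed the Ctr libraries between 18.1 and 40.4 and the EZH2i libraries between -42.4 and -19.4. Ezh2 was at 49.4 ± 5.21 CPM in Ctr and at 39.6 ± 7.66 CPM in EZH2i (SD, n = 3), and Ezh1, which encodes the alternative catalytic subunit, was at 10.9 ± 2.50 and 10.1 ± 2.96 CPM; neither passed edgeR's test. The 20 OPC markers summed to between 11911 and 12725 CPM in Ctr and between 10446 and 11644 CPM in EZH2i, without overlap. Of the 20, 3 were lower and 1 was higher without overlap, against 5.34% and 7.37% of all genes tested. Their median log2 fold change was -0.08, with 0 lower and 1 higher at an unadjusted edgeR p under 0.05. Pdgfra, the PDGF receptor that defines OPCs, was at 1294, 1305 and 1917 CPM in Ctr, and its EZH2i values of 975, 1144 and 1519 CPM overlapped with these.

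At an adjusted p under 0.05, 77 genes were higher in EZH2i than in Ctr (0.405% of the genes tested) and 0 were lower (0.0%). Transcription factors made up 30 of the 77 genes and MHC genes 1, and they are not described further. The remaining 46 genes, 44 of them protein-coding, are the rises treated below. Below an unadjusted p of 0.05, 985 genes were higher (5.19%) and 353 were lower (1.86%). DESeq2, in place of edgeR's quasi-likelihood test, called 12 genes lower. Adding the replicate number to the edgeR fit as a block gave 657 genes higher and 114 lower, and on only the 6 libraries 503 and 185. DESeq2 also had group as its only term. The count of 0 lower genes therefore holds for edgeR's test on all 12 libraries without the block. The 20 genes named next as lower were not called by that edgeR fit, and both fits with the block called all 20. DESeq2 called 10 of the 20, and on only the 6 libraries, a fit chosen after seeing the data, 14. Calls and adjusted p-values below are from the edgeR fit without the block unless another fit is named.

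Among protein-coding genes outside the TF and MHC families, the 20 genes with the smallest p whose EZH2i libraries all lay below the Ctr libraries had log2 fold changes between -1.02 and -0.46, with edgeR adjusted p-values (Benjamini-Hochberg) from 0.0938 to 0.234. Of all genes tested, 5.34% were lower without overlap. Several of the 20 belong to the maturing oligodendrocyte. Mbp, which encodes myelin basic protein, was at 814, 957 and 663 CPM in Ctr and at 435, 457 and 312 CPM in EZH2i. Every EZH2i library lay well below the lowest Ctr library, and the log2 fold change was -1.02 (standard error 0.26, edgeR adjusted p = 0.174, Benjamini-Hochberg). With edgeR, Mbp was the only gene called lower in any of the 12 fits that left out 1 library (edgeR adjusted p = 0.0422, Benjamini-Hochberg, without the first replicate of IFN-γ with EZH2i). Enpp6, a choline phosphodiesterase and marker of newly forming oligodendrocytes, was at 163, 125 and 107 CPM in Ctr and at 76.0, 77.0 and 59.6 CPM in EZH2i (log2 fold change -0.90, standard error 0.20, edgeR adjusted p = 0.106, Benjamini-Hochberg). Its groups were apart as well, which the choice of the 20 genes required. Ugt8a, the transferase that makes the myelin lipid galactosylceramide, was at 307, 223 and 286 CPM and at 213, 180 and 191 CPM. Tmem88b, a transmembrane protein gene of the fixed list of myelin and differentiation genes, was at 29.0, 25.3 and 19.2 CPM and at 15.8, 11.7 and 10.0 CPM. For both, the groups lay close to each other. Lack of overlap was a condition for all 20 genes and is no separate evidence of a fall.

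**Figure D1:**
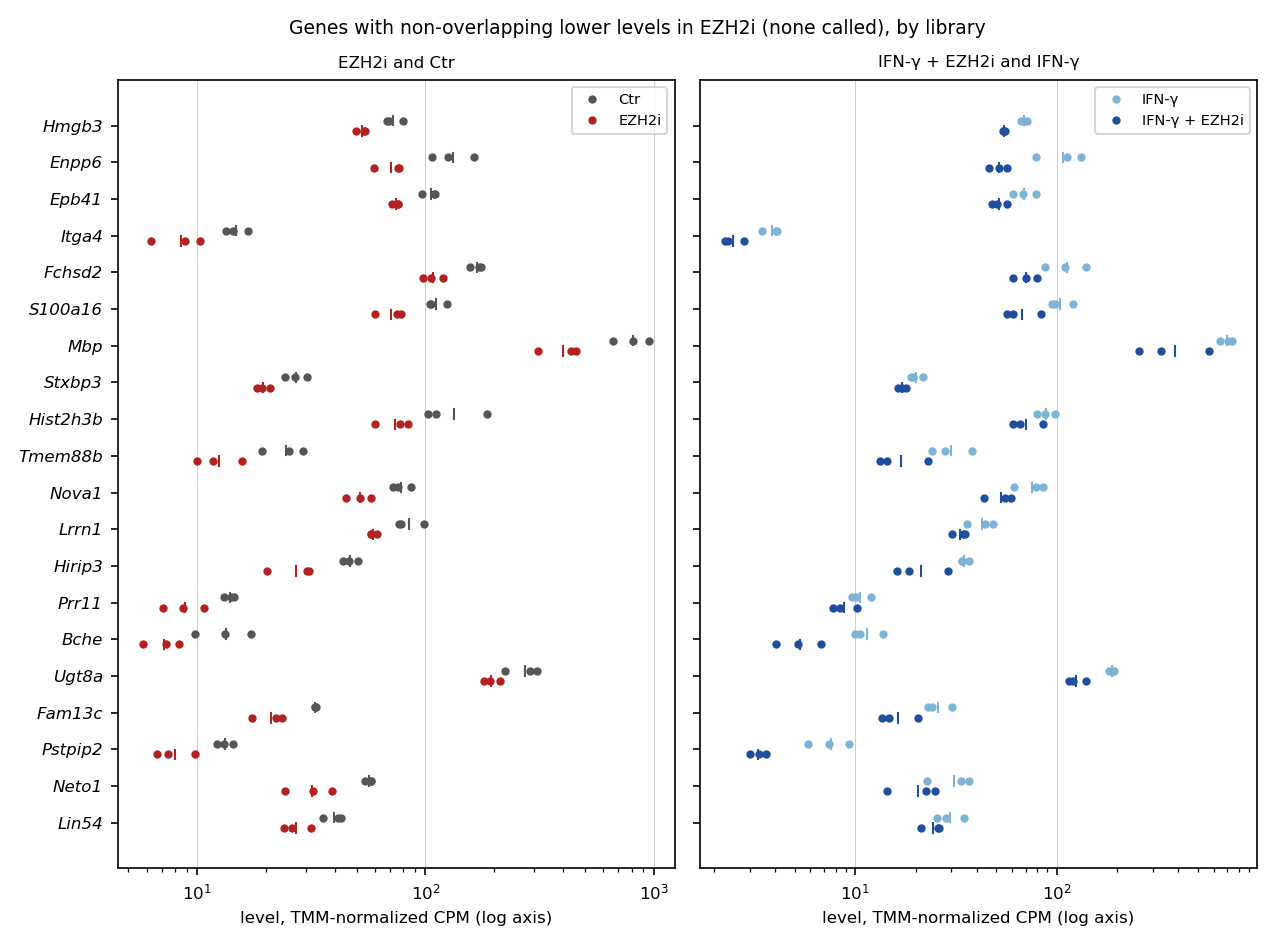
Level of the 20 protein-coding genes lower without overlap in EZH2i, as TMM-normalized CPM on a log axis, ordered by p. Each point is a library and each tick a group mean; Ctr and EZH2i are on the left, and IFN-γ with and without EZH2i on the right. On the left no red point reaches a grey one, which the choice of genes required. On the right, where it was not required, the groups are apart for 16 of the 20 genes.

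The other lower genes fall into groups by what they encode. Hmgb3, a chromatin-binding HMG-box protein, had the smallest p among them, at 69.2, 80.1 and 67.8 CPM in Ctr and at 49.6, 53.6 and 54.6 CPM in EZH2i (log2 fold change -0.46, standard error 0.10, edgeR adjusted p = 0.0938, Benjamini-Hochberg). Hirip3, which encodes a histone-binding protein, was at 46.2, 50.6 and 43.5 CPM and at 20.3, 30.8 and 30.3 CPM. Lin54, a DNA-binding subunit of the DREAM complex that controls cell cycle genes, and Prr11, a cell cycle gene, had log2 fold changes of -0.56 and -0.65. Among genes for membrane and cortical proteins, Itga4, an integrin subunit, was at 16.8, 14.3 and 13.4 CPM in Ctr and at 10.3, 6.30 and 8.88 CPM in EZH2i. Neto1, an auxiliary subunit of kainate receptors, was at 54.3, 57.8 and 57.6 CPM and at 32.1, 24.3 and 39.1 CPM. The Ctr values of Neto1 lay within a narrow span and the EZH2i values were spread further. Epb41, the cytoskeletal protein 4.1R, and the endocytic adaptor Fchsd2 were at 105 ± 7.59 and 168 ± 9.19 CPM in Ctr and at 74.4 ± 2.87 and 108 ± 11.3 CPM in EZH2i. Stxbp3, a SNARE regulator, Lrrn1, a leucine-rich repeat neuronal protein, and Pstpip2, an F-BAR protein, had log2 fold changes of -0.48, -0.52 and -0.73. The remaining members were S100a16, a calcium-binding protein (-0.65), Nova1, a neuronal splicing regulator (-0.60), Bche, the gene of butyrylcholinesterase (-0.92), Fam13c (-0.65) and the histone gene Hist2h3b (-0.85).

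The same 20 genes were also compared in the libraries with IFN-γ. These libraries are not in the contrast that ranked the genes, but they shared its filter, scaling and estimate of spread. All 20 were lower with EZH2i there. Of the 20, 16 had an unadjusted p under 0.05, against 2.1% of all genes tested, and 16 had groups that did not overlap, against 4.26%. Their median log2 fold change was -0.62, beside -0.65 without IFN-γ and -0.01 for all genes tested in the IFN-γ pair. Enpp6 was at 132, 113 and 79.0 CPM with IFN-γ alone and at 51.8, 46.2 and 56.7 CPM after EZH2i and IFN-γ together (log2 fold change -1.07, standard error 0.20, edgeR adjusted p = 0.0563, Benjamini-Hochberg). Mbp was at 738, 705 and 645 CPM and at 571, 330 and 257 CPM, and Ugt8a at 193, 183 and 189 CPM and at 121, 114 and 140 CPM. Pstpip2 was the only gene called lower in this pair, from 9.32, 5.86 and 7.45 CPM to 3.59, 3.01 and 3.33 CPM (log2 fold change -1.19, edgeR adjusted p = 0.0401, Benjamini-Hochberg). The exceptions above an unadjusted p of 0.05 were Stxbp3, Hist2h3b, Prr11 and Lin54. More broadly, of the 327 genes outside the TF and MHC families that were lower at an unadjusted p under 0.05 without IFN-γ, 99 (30.3%) were also lower at that level with it. The labels number the replicates 1 to 3 in every group and do not say whether a number marks a litter. Of the 18 pairs of libraries with the same number, 15 deviated from their group means together, with correlations across genes of 0.411 to 0.642, while the 3 with Ctr replicate 2 had 0.0134 to 0.0854 and pairs of different numbers at most 0.0881. The pairs with and without IFN-γ are thus not fully independent measurements.

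The list of 29 myelin and differentiation genes had 28 members past the filter. None was called, 23 had a negative log2 fold change, and the median was -0.41, beside 0.01 over all genes tested. At an unadjusted p under 0.05, 5 of the 28 were lower, against 1.86% of all genes tested, and 0 were higher. The 5 were Enpp6, Mbp, Tmem88b, Ugt8a and Mag. With the replicate number as a block, 19 of the 28 were lower at that level (edgeR), against 7.88% of all genes tested. In the libraries with IFN-γ the block gave 20, against 7.48%. Mag, an adhesion protein of the inner myelin layer, was at 153, 147 and 135 CPM in Ctr and at 134, 91.2 and 68.4 CPM in EZH2i, so its first EZH2i replicate lay just below Ctr. Cnp, a myelin phosphodiesterase gene, was at 487, 420 and 422 CPM in Ctr and, without overlap, at 353, 394 and 304 CPM in EZH2i. In the libraries with IFN-γ the list had a median of -0.48, with 25 of 28 members below 0 and 7 lower at an unadjusted p under 0.05. Over the 12 fits that left out 1 library, the count without IFN-γ ranged from 4 to 12, with 12 without EZH2i replicate 1 and 8 without IFN-γ replicate 2 or the first replicate of IFN-γ with EZH2i, and the median from -0.69 to -0.26. In bulk libraries, fewer cells of a type and less RNA per cell cannot be told apart, which holds here for maturing oligodendrocytes.

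Replication-dependent histone genes, which are transcribed in S phase to package new DNA, formed the other list of lower genes. Of 63 members past the filter, 61 had a negative log2 fold change, with a median of -0.41, and none was called. At an unadjusted p under 0.05, 25 were lower, against 1.86% of all genes tested. With the replicate number as a block, 42 of the 63 were lower at that level (edgeR), against 7.88%. Hist2h3b was at 112, 187 and 102 CPM in Ctr and at 77.4, 84.1 and 59.9 CPM in EZH2i, and Hist1h3g, named after its values were seen, at 60.5, 102 and 58.5 CPM and at 36.2, 43.5 and 42.8 CPM. The second Ctr replicate was the highest for both, and the EZH2i libraries lay below all Ctr libraries. In the libraries with IFN-γ the histone genes had a median of -0.10, and 1 of 63 was lower at an unadjusted p under 0.05. With the block 5 of 63 were lower in these libraries, against 7.48% of all genes tested. Hist1h3g had a log2 fold change of -0.01 there. The unadjusted interaction p of Hist1h3g was 0.0331 (edgeR), but this gene was chosen after its values were seen, so its p does not speak for the list. No gene had a significant difference between the pairs after adjustment. The 40 cell cycle genes had a median of -0.18, with 34 below 0, 0 members at an unadjusted p under 0.05 in either direction, and no member called. Of the 13 mitochondrial protein-coding genes, 12 had a negative log2 fold change and 0 were lower at an unadjusted p under 0.05, with a median of -0.73, against -0.15 in the IFN-γ pair. In the fit without mitochondrial and rRNA genes, 25 of the 63 histone genes were lower at an unadjusted p under 0.05 (edgeR), with a median of -0.40. A link between the mitochondrial and histone values was not tested otherwise. Leaving out 1 library moved the count of lower histone genes between 8, without Ctr replicate 2, and 28, and it was 16 without EZH2i replicate 3. The copies of histone genes are near-identical, so the share of reads given to each one is uncertain.

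**Figure D2:**
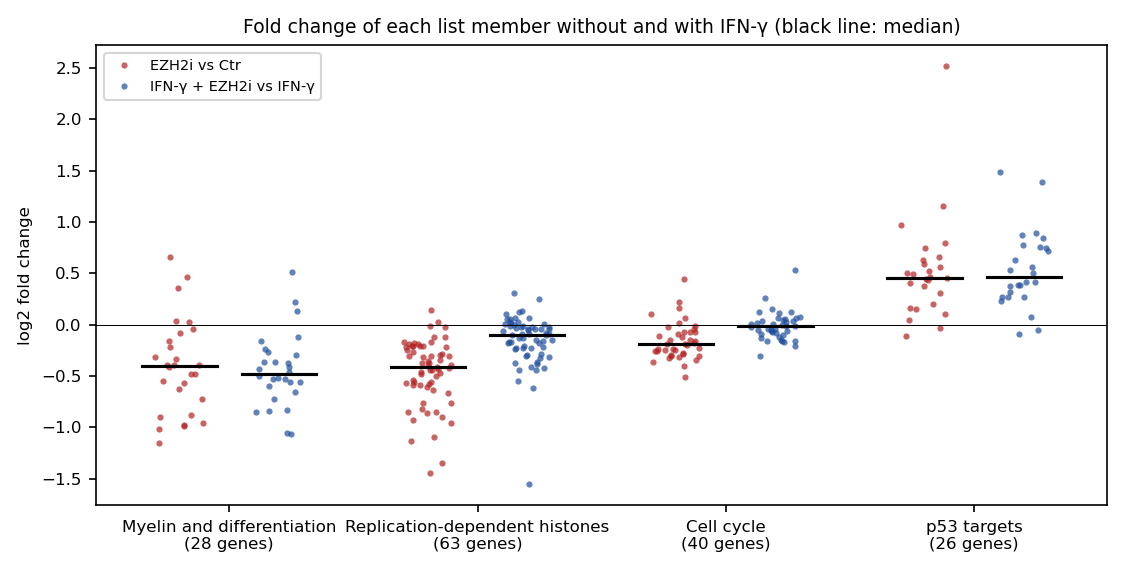
Log2 fold change of each member of 4 gene lists, with EZH2i vs Ctr in red and IFN-γ with EZH2i vs IFN-γ in blue; each point is a gene and the black line is the median. Myelin and p53 genes had similar medians in both pairs, while histone genes had a median of -0.41 without and -0.10 with IFN-γ.

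The 46 called genes had a median fitted log2 fold change of 1.56, or 1.54 with the 6 genes whose Ctr libraries were all at the floor set to their lower bound. The other genes ranged from 0.61 to 3.55. None of the 46 had overlapping groups, while 7.37% of all genes tested were higher without overlap. The 46 were chosen by a small p in these same libraries, so their lack of overlap is no separate evidence of a rise. Of the 46 genes, 16 were under 1 CPM in Ctr, 6 of them at the detection floor, and 11 were at 10 CPM or more. In the libraries with IFN-γ, all 46 were higher with EZH2i, 45 of them at an unadjusted p under 0.05 (4.33% of all genes), and 22 were called (0.347%). Leaving out a single library lowered the 46 calls to 9, 7 and 7 without Ctr replicates 1, 2 and 3, to 10 without either EZH2i replicate 1 or 2, and to 24 without the second replicate of IFN-γ with EZH2i. Zdbf2, E030030I06Rik, Shh, Ocln and Fzd6 were called in each of the 12 such fits.

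**Figure D3:**
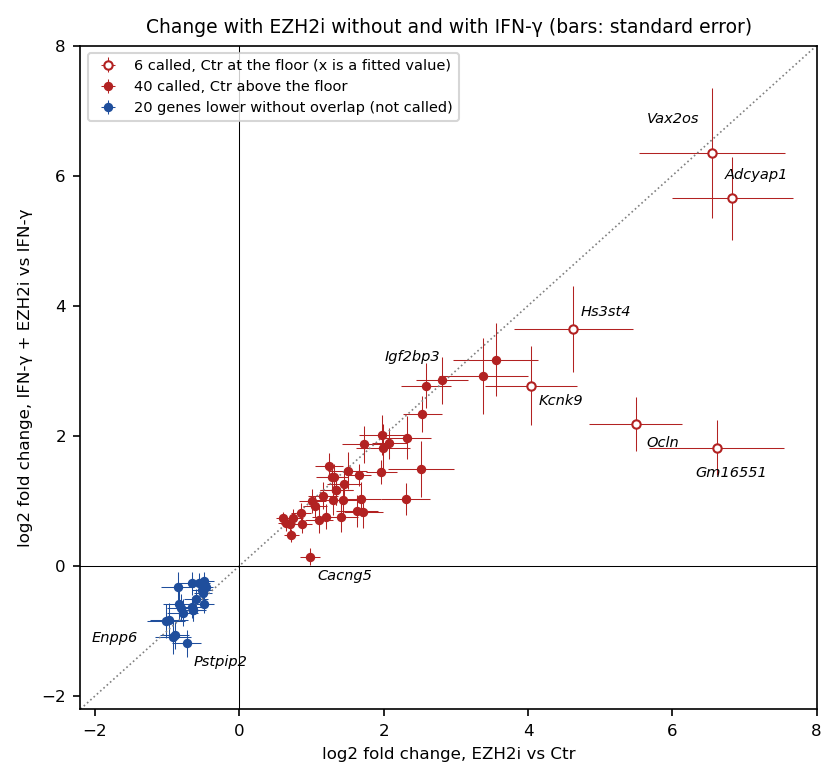
Log2 fold change of each gene with EZH2i without IFN-γ (x axis) and with IFN-γ (y axis), with standard errors as bars. The 46 called genes in red are all above 0 on both axes, the 20 genes lower without overlap in blue are all below 0 on both, and Cacng5 lies under the dotted line of equal change. Open points are the 6 genes with Ctr at the floor, whose x position is a fitted value and not a measured fold.

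Zdbf2, an imprinted gene on chromosome 1 of GRCm38 from 63273265 to 63314576, had the smallest p of all 46. It was at 4.57, 5.87 and 6.43 CPM in Ctr and at 18.4, 16.2 and 18.6 CPM in EZH2i, a log2 fold change of 1.65 (standard error 0.17, edgeR adjusted p = 0.00329, Benjamini-Hochberg). Its 3 EZH2i libraries were nearly equal. The bases before its start, and before those of the lower genes with the smallest p, Hmgb3 and Enpp6, are shown from RefSeq (GRCm38.p6, all on the plus strand) because PRC2 acts mainly at promoters rich in CpG. Each line holds the 250 bases before the annotated start, 5′ to 3′, with CG dinucleotides in capitals; the first is chr1:63273019-63273268, the second chrX:71555667-71555916 and the third chr8:46986637-46986886.
Zdbf2: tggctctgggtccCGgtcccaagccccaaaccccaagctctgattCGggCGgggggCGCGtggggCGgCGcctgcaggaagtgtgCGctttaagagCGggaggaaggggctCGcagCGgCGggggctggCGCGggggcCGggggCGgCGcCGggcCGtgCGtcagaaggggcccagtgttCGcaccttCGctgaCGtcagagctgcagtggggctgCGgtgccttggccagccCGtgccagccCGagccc
Hmgb3: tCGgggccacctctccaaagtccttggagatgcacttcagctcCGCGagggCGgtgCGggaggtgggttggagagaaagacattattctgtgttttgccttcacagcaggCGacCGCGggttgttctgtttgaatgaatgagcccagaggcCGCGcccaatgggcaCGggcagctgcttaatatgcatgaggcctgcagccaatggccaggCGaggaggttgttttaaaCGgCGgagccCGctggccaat
Enpp6: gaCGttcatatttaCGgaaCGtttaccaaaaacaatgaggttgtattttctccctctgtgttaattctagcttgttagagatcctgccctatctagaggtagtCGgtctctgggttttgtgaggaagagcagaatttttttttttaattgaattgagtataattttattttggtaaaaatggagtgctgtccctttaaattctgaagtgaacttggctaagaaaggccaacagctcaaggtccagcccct
The window of Zdbf2 holds 26 CG dinucleotides at a GC content of 74.4%, that of Hmgb3 15 at 58.8%, and that of Enpp6 4 at 38.4%. Another annotated start of Zdbf2, with the window chr1:63200108-63200357, has 13 at 52.8%, and the windows of Igf2bp3 and Lin28b, which were called higher, have 21 at 60.4% and 6 at 39.2%. RefSeq promoters matched only 33 of the 46 called genes (71.7%), and 62.1% of all genes tested outside the TF and MHC families. The matched called genes had a median of 14 CG dinucleotides at a GC content of 59.6%, beside 15 at 59.8% for all matched genes. This difference was not tested, the unmatched genes are unknown, and the windows shown are single examples. Exonic length, known for all 46 called genes, had a median of 4800.5 bases in them and 3645 bases in all genes tested outside the TF and MHC families.

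Imprinted genes were also represented by Magel2 and Grb10. Magel2, from the Prader-Willi region, was at 0.213, 0.790 and 0.305 CPM in Ctr and at 7.76, 3.48 and 1.53 CPM in EZH2i, with a wide spread among the EZH2i libraries. Grb10, an adaptor that dampens insulin signaling, rose from 34.0 ± 2.10 to 53.4 ± 4.68 CPM. Magel2 was called in 2 and Grb10 in 1 of the 12 fits that left out 1 library. With Zdbf2, 3 of the 44 imprinted genes past the filter were called, against 0.405% of all genes tested, and the list had a median of 0.15. A pair of oncofetal RNA-binding proteins rose too. Igf2bp3, from the IGF2 mRNA-binding family, was at 1.88, 4.63 and 3.41 CPM in Ctr and at 26.8, 24.6 and 17.5 CPM in EZH2i (log2 fold change 2.81, standard error 0.36, edgeR adjusted p = 0.00753, Benjamini-Hochberg). Lin28b, which blocks the maturation of let-7 microRNAs, was at 0.461, 0.282 and 0.136 CPM and at 4.18, 3.07 and 2.63 CPM (log2 fold change 3.55, edgeR adjusted p = 0.0256, Benjamini-Hochberg). For both genes the lowest EZH2i value was several times the highest Ctr value.

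Secreted ligands and their receptors formed a further group. Shh, the Hedgehog ligand of the ventral neural tube where the first OPCs arise, was at 0.426, 0.339 and 0.424 CPM in Ctr and at 1.82, 1.37 and 1.58 CPM in EZH2i (log2 fold change 1.97, standard error 0.21, edgeR adjusted p = 0.00378, Benjamini-Hochberg). Cdon, a co-receptor that binds Shh, rose from 18.4, 22.4 and 17.8 CPM to 52.1, 56.0 and 40.5 CPM. These were the called members among 13 Hedgehog genes, against 0.405% of all genes tested, and the median of the list was 0.00. Of 45 WNT genes past the filter, Fzd6 and Rspo3 were called, against 0.405% of all genes tested, and the median was 0.34. At an unadjusted p under 0.05, 13 were higher and 1 was lower, against 5.19% and 1.86% of all genes tested. The count of 13 was 8 and 7 without EZH2i replicate 1 and 2. Fzd6, a Frizzled receptor, was at 0.886, 0.678 and 0.882 CPM in Ctr and at 3.29, 4.16 and 3.05 CPM in EZH2i. Rspo3, a secreted enhancer of WNT signaling, was at 0.111 ± 0.0476 and 0.623 ± 0.180 CPM. Pth1r, the parathyroid hormone receptor, rose from 1.16 ± 0.245 to 4.55 ± 1.36 CPM. Adcyap1, the gene of the neuropeptide PACAP, was at the detection floor of 3 counts in every Ctr library and at 2.32, 1.40 and 0.774 CPM in EZH2i, at least 13.8-fold higher with the floor taken per library. Npvf, the precursor of RFamide peptides, rose from 0.961 ± 0.351 to 3.06 ± 0.361 CPM. These were the called members among 20 neuropeptide precursors past the filter, of 42 on the list, against 0.405% of all genes tested. The 20 had a median of 0.67. Of them, 4 were at the floor in Ctr, so they passed the filter through other groups and enter the median with fitted values.

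**Figure D4:**
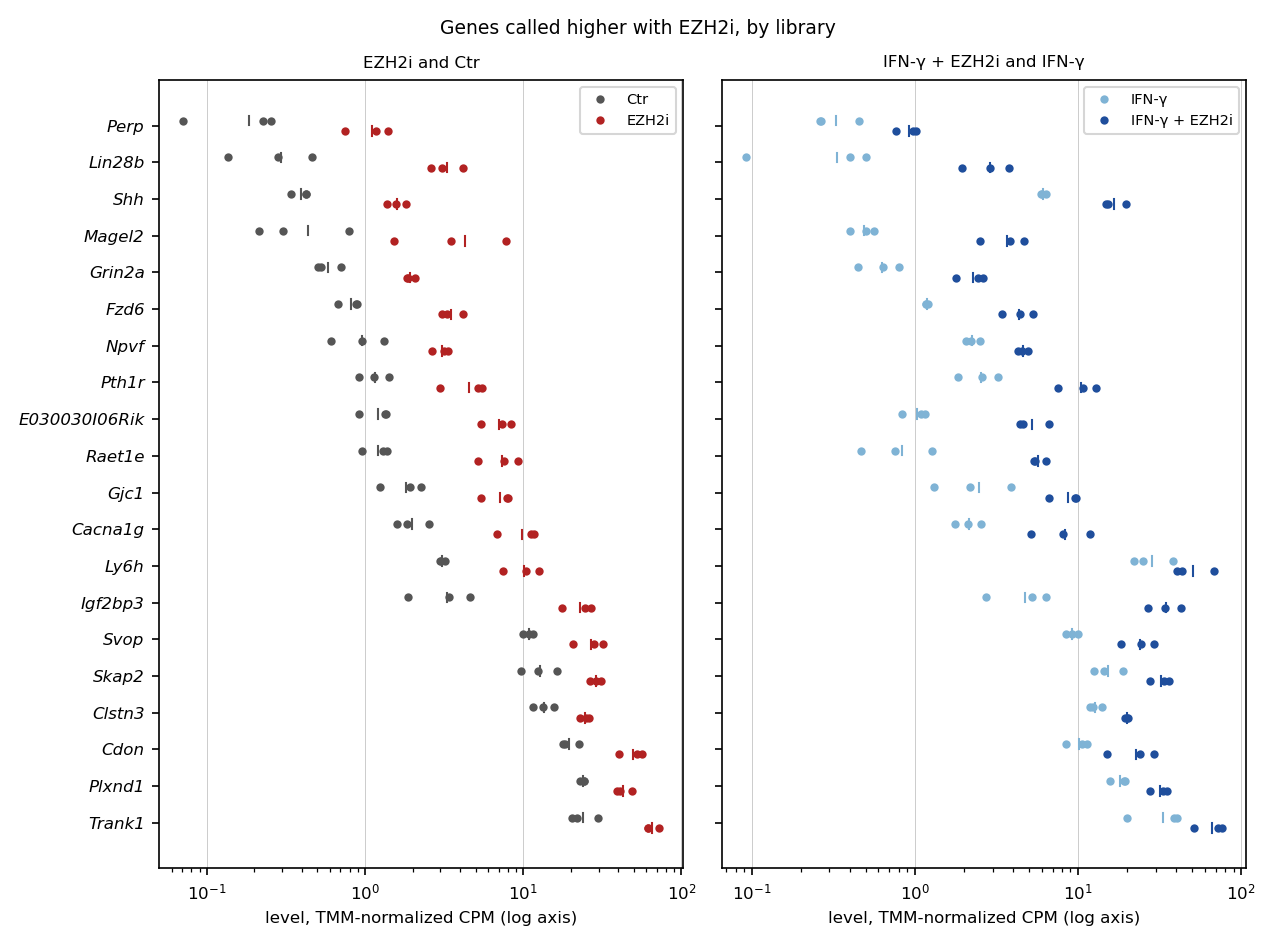
Level of 20 protein-coding genes called higher with EZH2i, as TMM-normalized CPM on a log axis, ordered by their mean in Ctr; each point is a library and each tick a group mean. They are those named by size of change with no library at 0, so Adcyap1 is not drawn. For each gene every EZH2i library exceeded every Ctr library, which was a condition for the largest rises. The genes run from Perp, the least abundant in Ctr at a mean of 0.184 CPM, to Trank1, with a mean of 24.0 CPM.

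Channels and receptors of excitable cells were among the called genes. Of 107 voltage-gated channel genes past the filter, 4 were called, against 0.405% of all genes tested. At an unadjusted p under 0.05, 21 were higher, against 5.19%, and the median was 0.26. Cacna1g, a T-type calcium channel, was at 1.84, 2.54 and 1.59 CPM in Ctr and at 11.7, 11.1 and 6.80 CPM in EZH2i (log2 fold change 2.32, standard error 0.34, edgeR adjusted p = 0.0153, Benjamini-Hochberg). Cacna2d1, an auxiliary calcium channel subunit, rose from 26.4 ± 1.43 to 43.1 ± 5.79 CPM, and Kcnk9, a leak potassium channel at the floor in Ctr, reached 0.923 ± 0.315 CPM, at least 8.48-fold higher. Among 47 receptors of fast transmitters, Grin2a, an NMDA receptor subunit, rose from 0.581 ± 0.111 to 1.93 ± 0.125 CPM and Chrna5, a nicotinic receptor subunit, from 0.781 ± 0.118 to 2.11 ± 0.0216 CPM. The rise of Grin2a turned to a log2 fold change of -0.48 in length-scaled TPM, so its direction depends on whether transcript length enters the values. Of the neuron markers, 7 of 18 were higher at an unadjusted p under 0.05, against 5.19% of all genes tested, and none was called. Their summed level was 1098 to 1396 CPM in Ctr and 1141 to 1615 CPM in EZH2i. Snap25, a synaptic SNARE protein, was at 11.1 ± 0.902 CPM and at 35.6, 19.2 and 23.8 CPM. The neuron count of 7 fell to 3 without Ctr replicate 3 or EZH2i replicate 1, and to 4 without Ctr replicate 2 or EZH2i replicate 2, and without EZH2i replicate 1 the list's median was 0.027. The part of neurons in the channel result was not tested. The 15 astrocyte markers summed to 2621 to 4548 CPM in Ctr and 3218 to 5385 CPM in EZH2i. Of the 15 microglia markers, 3 had no count in Ctr and 1 had none in EZH2i, and they summed to 8.55 to 11.7 and 10.3 to 11.3 CPM, and the 7 erythroid ones at up to 0.508 CPM. The 11 endothelial markers summed to 17.2 to 24.5 CPM in Ctr and 30.8 to 43.6 CPM in EZH2i, without overlap.

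Further called genes were already expressed in Ctr. Genes with few counts need a larger change to be called, so sizes of change are not compared between levels. Among the 11 called genes at 10 CPM or more in Ctr, Trank1 was the most changed, at 29.9, 21.8 and 20.4 CPM in Ctr and at 61.5, 72.3 and 61.8 CPM in EZH2i (log2 fold change 1.44, edgeR adjusted p = 0.0390, Benjamini-Hochberg). Svop, a synaptic vesicle transporter-like protein, rose from 10.8 ± 0.814 to 26.8 ± 5.66 CPM, Plxnd1, a semaphorin receptor, from 23.7 ± 0.757 to 43.0 ± 5.11 CPM, and Clstn3, a synaptic calsyntenin, from 13.5 ± 2.05 to 24.6 ± 1.73 CPM. Tenm3, a teneurin adhesion protein, rose from 53.7 ± 3.62 to 88.6 ± 6.89 CPM. Lamb1, a laminin chain, was at 6.66 ± 0.786 and 16.9 ± 3.02 CPM. It was the called member among 90 matrix genes other than collagens, against 0.405% of all genes tested. The 36 collagens had a median of 0.42, and none was called. At an unadjusted p under 0.05, 9 were higher, against 5.19% of all genes tested, and 0 were lower. Beside them, 7 of 10 fibroblast and mural markers past the filter had a positive log2 fold change, 2 at an unadjusted p under 0.05, with a median of 0.44; the 14 on that list summed to 798 to 839 CPM in Ctr and 735 to 962 CPM in EZH2i, and their part in the collagen values was not tested. Gjc1, a connexin, rose from 1.81 ± 0.518 to 7.13 ± 1.50 CPM. Bmi1, a PRC1 subunit, was the only called member among 23 PRC1 and 16 PRC2 or demethylase genes, against 0.405% of all genes tested. It was at 78.7, 81.7 and 82.6 CPM in Ctr and at 133, 119 and 119 CPM in EZH2i (log2 fold change 0.61, standard error 0.10, edgeR adjusted p = 0.0274, Benjamini-Hochberg).

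Targets of p53, the DNA damage-responsive transcription factor, had the largest share of higher genes among the lists with at least 10 members tested. Of 26 members, 24 had a positive log2 fold change. At an unadjusted p under 0.05, 15 were higher and 0 were lower, against 5.19% and 1.86% of all genes tested. The median was 0.46. In the libraries with IFN-γ the figures were 24, 13 and 0, with a median of 0.46. Only Perp, a desmosomal protein gene, was called, at 0.0709, 0.226 and 0.254 CPM in Ctr and at 1.39, 1.18 and 0.744 CPM in EZH2i; it was called in 1 of the 12 fits that left out 1 library. Ccng1, a cyclin G gene, was at 329, 325 and 285 CPM and at 480, 473 and 392 CPM, and Pmaip1, the apoptosis gene also known as Noxa, at 7.06 ± 3.22 CPM and at 15.8 ± 2.89 CPM. The groups of both were apart, and both were named after their values were seen. Cdkn1a and Mdm2, 2 classical targets, overlapped between the groups, at 67.8 ± 17.9 and 97.9 ± 12.6 CPM in Ctr and 95.7 ± 21.3 and 110 ± 14.2 CPM in EZH2i. Leaving out 1 library moved the count of 15 between 10 and 16. Among 7 CDK inhibitors, Cdkn2a, which encodes p16 and Arf and is a known target of Polycomb silencing, was at 10.2 ± 2.03 CPM in Ctr and at 26.3, 38.5 and 18.3 CPM in EZH2i (log2 fold change 1.45, standard error 0.31, edgeR adjusted p = 0.0816, Benjamini-Hochberg). Its neighbor Cdkn2b was at 19.2 ± 4.17 and 32.5 ± 10.8 CPM, and Cdkn1b, which encodes p27 and restrains division as OPCs mature, was at 97.0 ± 13.3 and 70.4 ± 6.71 CPM, lower without overlap. None of the 7 was called.

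**Figure D5:**
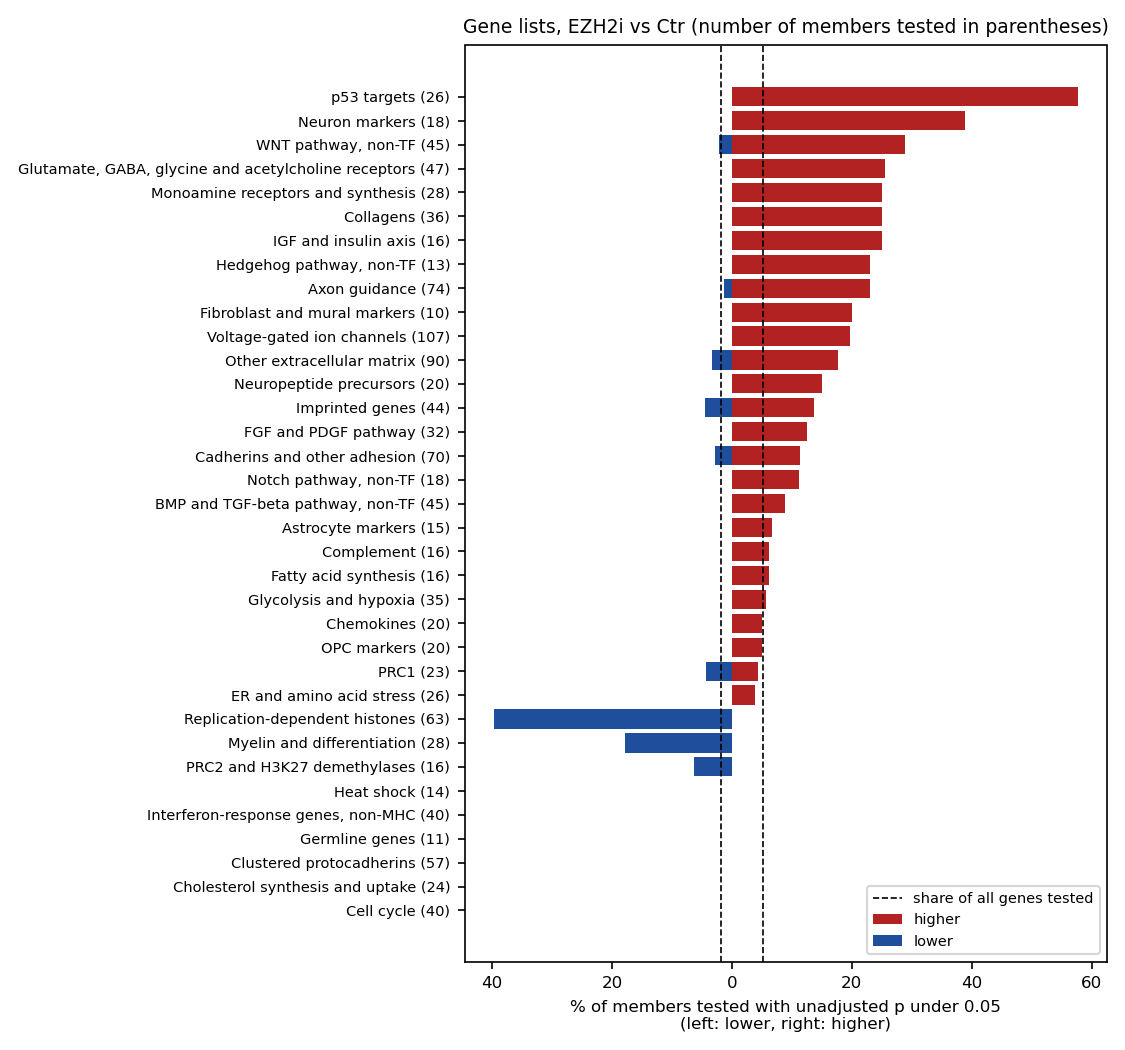
Share of each gene list with an unadjusted p under 0.05 in EZH2i vs Ctr, in percent of the members tested, with higher genes to the right and lower genes to the left; dashed lines mark the shares of all genes tested, 5.19% and 1.86%. Lists with at least 10 members tested are drawn. The p53 targets extend furthest to the right and the replication-dependent histones furthest to the left.

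Some rises lay close together in the genome. Of the 46 genes, 9 were within 1 Mb of another called gene (19.6%), transcription factors included, against 1349 of the 17863 other genes outside the TF and MHC families (7.55%). The 9 include both members of Bves and Lin28b, of E030030I06Rik and Raet1e, and of Pth1r and Trank1. Genes that were not called cannot add such mutual pairs, so the shares are not fully comparable. Bves and Lin28b are 4141 bases apart on chromosome 10, and E030030I06Rik and Raet1e 9299 bases apart on the same chromosome. Raet1e, a ligand of the NKG2D receptor of natural killer cells, was at 0.957, 1.30 and 1.37 CPM in Ctr and at 9.29, 7.51 and 5.15 CPM in EZH2i, and E030030I06Rik at 1.21 ± 0.246 and 7.02 ± 1.48 CPM. The Raet1 genes are a family of close copies, so the assignment of reads to this one is uncertain. Skap2, a Src-kinase adaptor that rose from 12.8 ± 3.25 to 28.7 ± 2.16 CPM, lies 189205 bases from Hoxa5. Vax2os, a noncoding RNA that overlaps the transcription factor gene Vax2, was at the floor in Ctr and at 1.47, 1.62 and 0.455 CPM in EZH2i, at least 10.8-fold higher; whether strand was used to separate the overlapping transcripts is not given in the sources used here. Among noncoding genes lower without overlap, Zeb2os, 4930452G13Rik, Gm29170 and Nespas had log2 fold changes of -0.79, -1.34, -0.60 and -0.56, and none was called.

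No gene passed an adjusted p of 0.05 when the response to EZH2i was compared between resting and IFN-γ-treated OPCs (edgeR), and 127 had an unadjusted p under 0.05 (0.669%). Of the 46 called genes, 5 were among them, namely Cacng5, Ocln, Gm16551, Rspo3 and Ly6h, with Ocln and Gm16551 chosen once their values were known. The 46 were chosen by the change that the interaction subtracts, which by itself favors a smaller change with IFN-γ among them. Neither the count of 5 nor the direction of these differences is therefore separate evidence of a different response. The log2 fold change was smaller in the IFN-γ pair for Cacng5, Ocln, Rspo3 and Ly6h. For Gm16551, with no count in Ctr, the change without IFN-γ is known only as at least 2.99-fold and cannot be ordered against its log2 fold change of 1.82 with IFN-γ. Cacng5, an auxiliary subunit of AMPA receptors and calcium channels, was at 8.37, 7.40 and 8.30 CPM in Ctr and at 15.9 ± 0.740 CPM in EZH2i. With IFN-γ it was at 22.3, 18.9 and 21.1 CPM without and 25.6, 22.7 and 20.3 CPM with EZH2i, so the groups were apart in resting cells and overlapped after IFN-γ. Ocln, the tight junction protein occludin, was at the floor in Ctr and at 1.39, 0.767 and 0.759 CPM in EZH2i, at least 8.94-fold higher, and at 0.603, 0.293 and 0.463 CPM with IFN-γ and 1.88, 2.34 and 1.94 CPM with both. Ly6h, a GPI-anchored modulator of nicotinic receptors, was at 3.07 ± 0.108 and 10.2 ± 2.55 CPM in resting cells. In the IFN-γ pair Ly6h was at 38.2, 22.0 and 25.1 CPM and, with EZH2i, at 67.9, 43.5 and 40.4 CPM.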

How the data were processed

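Total RNA-seq libraries (stranded TruSeq Gold kit) of 12 samples of cultured mouse OPCs were analysed. The authors quantified reads with Salmon (0.8.2 in the submitters' processing notes) and deposited, per transcript, the estimated count together with TPM. The 2 tables of the authors' DESeq2 comparisons were not used. Estimated counts were summed per gene (GENCODE annotation of GRCm38, 55536 genes) and rounded. The paper names an older Ensembl annotation, but all transcripts matched this one.

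Tests used edgeR 4.0.16 in R 4.3.3: TMM factors, the default filter on low counts, the quasi-likelihood test and one fit of all 12 libraries with group as the only term. Contrasts gave EZH2i vs Ctr, the IFN-γ pair and their interaction, with Benjamini-Hochberg adjustment. Calls have an adjusted p under 0.05. CPM are TMM-scaled, given as mean ± SD over 3 replicates from different litters. Standard errors are the log2 fold change divided by the root of F. A group with 3 counts or fewer in every library is at the floor. Fits were tested on simulated data.

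Named genes, outside TF and MHC families, were the 20 lower protein-coding genes of at least 1 CPM in Ctr with no overlap (largest change if called, otherwise smallest p), the 15 largest called rises of at least 1 CPM in EZH2i, up to 4 noncoding genes each way, the 6 largest called changes each way from 10 CPM in Ctr, up to 4 called members of each of 42 gene lists (the first 2 tested where none was called), Ezh2 and Ezh1. Not every gene the rule picks is reported. The genes, these lists and the rule were chosen with earlier results of these data known. Ocln, Tenm3, Bves, Gm16551, Snap25, Cdkn2a, Cdkn2b, Ccng1, Pmaip1, Hist1h3g, Mag, Cnp and Mdm2 fall outside the rule and were named after their values were seen. Alternatives were DESeq2 1.42.0, RLE factors, other count filters, a replicate block, only the 6 libraries of a pair, length-scaled TPM, a minimum absolute log2 fold change of 1, mitochondrial and rRNA genes removed, and fits without each library in turn; DESeq2 on 6 libraries was added after seeing the data.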

Additional observations from a re-analysis of the deposited data

How the results depend on the processing

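The number of called genes depended on the tool and the filter, while the direction of the named genes mostly did not. The counts below are, in order, genes called higher, the same outside the TF and MHC families, genes called lower, the same outside these families, and genes called higher both without and with IFN-γ (77, 46, 0, 0 and 46 in the text). DESeq2 gave 286, 195, 12, 12 and 169, and DESeq2 on the 6 libraries of a pair, chosen after seeing the data, 288, 197, 65, 57 and 130. edgeR on only those 6 libraries gave 33, 17, 0, 0 and 5. At least 10 counts in every library gave 29, 26, 0, 0 and 10, length-scaled TPM 49, 27, 0, 0 and 24, and no filter 121, 69, 0, 0 and 68. Leaving out 1 library gave 11 to 82, 7 to 49, 0 to 1, 0 to 1 and 8 to 47. The interaction stayed at 0 calls in every alternative run on all groups. The cause of these differences was not tested.

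Same-numbered Ctr and EZH2i libraries deviated together with correlations of 0.441, 0.0467 and 0.495. Each library correlated best with its own number except EZH2i replicate 2. The main fit left the numbers out, so deviations shared by number stayed in its estimate of spread. Its calls and adjusted p-values carry that limit. With the replicate block the counts were 657, 541, 114, 106 and 415, and with the block on only the 6 libraries 503, 419, 185, 167 and 386. The block on all 12 libraries also raised the list counts of genes higher at an unadjusted edgeR p under 0.05. They were 19 of 26 p53 targets, 21 of 45 WNT genes, 41 of 107 voltage-gated channels, 16 of 36 collagens and 10 of 18 neuron markers. The share of all genes tested was 10.6%.

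Among the genes named in the text, Grin2a turned to -0.48 in length-scaled TPM. Over fits without 1 library, Ezh1 ranged from -0.37 to 0.090, and Hist1h3g in the IFN-γ pair from -0.17 to 0.24; neither was called. Depth limits genes under 1 CPM most in Ctr replicate 2, the shallowest library.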
